A study of Mus musculus with 12 samples.

Results

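The MYC, MAX and MXD network was examined as a set of 9 genes chosen by name: *Myc*, *Mycn*, *Mycl*, *Max*, *Mxd1*, *Mxd3*, *Mxd4*, *Mxi1* and *Mnt*. All 9 were listed among the 25093 genes of the deposited count table. The rule takes them by symbol and sets no threshold on a measured value, but the set was put forward with earlier results of these data known. The proteins share a basic helix-loop-helix leucine zipper. MYC, MYCN and MYCL pair with MAX, bind the DNA word called the E-box, and raise transcription of genes for ribosome production, metabolism and cell growth. MXD1, MXD3, MXD4, MXI1 and MNT compete for MAX, bind the same word and recruit SIN3 and histone deacetylases, which lower transcription. In muscle stem cells MYC is known as a gene of activation and growth, whereas MXD proteins are associated with cells that leave the cell cycle.

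The cells were mouse satellite cells, the stem cells of skeletal muscle, isolated by FACS from the hindlimb muscles of mice aged 3 to 4 months. Controls (*Gli3*+/+) were *Pax7*-CreERT2/+; *Gli3*+/+; R26R-YFP mice, and *Gli3*∆/∆ mice were *Pax7*-CreERT2/+; *Gli3* fl/fl; R26R-YFP. Both therefore carried the tamoxifen-inducible Cre placed at *Pax7* and the YFP reporter, and both received tamoxifen. The Cre acts where *Pax7* is transcribed, so that other cells of the muscle keep *Gli3*. Quiescent satellite cells (QSCs) came from uninjured muscle, by a gate on α7-INTEGRIN and CD34 that leaves out cells with CD31, CD45, SCA1 or CD11B. Each QSC library combined the muscles of 2 to 3 animals. Activated satellite cells (ASCs) came from muscle injured with cardiotoxin 3 days earlier. Of the 12 libraries in 4 groups, the 6 QSC libraries (3 of each genotype) could be matched to columns of counts, and the ASC columns were not analysed here. All comparisons below are therefore of *Gli3*∆/∆ with *Gli3*+/+ QSCs.

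Depth was 39556784, 65340069 and 47007056 estimated counts in the *Gli3*+/+ libraries (replicates 1, 2 and 3), and 51913963, 65750131 and 50417695 in the *Gli3*∆/∆ libraries. Levels are given as CPM, in which each count is scaled by the TMM-normalized size of its library, in the order of replicates 1, 2 and 3. At this depth 3 counts correspond to between 0.0445 and 0.0745 CPM. The sorted cells carried the satellite cell label: *Pax7*, the defining transcription factor, was at 1052, 884 and 1036 CPM in *Gli3*+/+ and 945, 1157 and 798 CPM in *Gli3*∆/∆ QSCs. The leukocyte marker *Ptprc* lay between 0.252 and 2.11 CPM.

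*Gli3* itself, the targeted gene, was at 11.2, 9.71 and 9.75 CPM in *Gli3*+/+ and 9.54, 10.5 and 6.25 CPM in *Gli3*∆/∆ libraries. The groups overlapped (log2 fold change −0.22 ± 0.22 SE, adjusted p = 0.916, quasi-likelihood test of edgeR). The count covers whole transcripts, not the floxed exon alone, and therefore does not check the genotype labels. *Gli1*, a transcriptional target and effector of Hedgehog signaling, was at 44.0, 46.1 and 47.1 CPM in *Gli3*+/+ and 58.0, 70.5 and 67.8 CPM in *Gli3*∆/∆ QSCs, without overlap (log2 fold change 0.52 ± 0.13 SE, adjusted p = 0.263 from edgeR). *Ptch1*, the Hedgehog receptor and another target, was at 115, 149 and 80.6 CPM and 138, 136 and 138 CPM, with overlapping groups (log2 fold change 0.26 ± 0.21 SE, adjusted p = 0.895 from edgeR).

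One library stood apart. *Gli3*+/+ replicate 3 held the highest value of 27.5% of the 14696 genes with a mean of at least 1 CPM, whereas the other libraries held between 9.95% and 17.5%. Its TMM factor was the lowest, 0.917 against 1.01 to 1.03. Its mean correlation with the 5 other libraries, across those genes on the log2(CPM + 1) scale, was 0.968, against 0.976 to 0.977 for each of the others. Counts over the lists of branch genes, cofactors, targets and early genes are given with and without it.

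The E-box with the letters CACGTG, which reads the same on both strands, was sought in RefSeq promoter sequences of GRCm38.p6, each 250 bases before to 50 bases after a gene's start. Of the 9 members, 8 had a promoter there and 3 of these, *Max*, *Mxd4* and *Mnt*, held the word. Among the 4 genes of the parallel MLX and MGA branch, which is described further on, *Mlx* and 1 of the 2 listed starts of *Mlxipl* held it. Of all 27025 gene symbols with such a promoter, 8.09% held the word at 1 or more starts, and of all 32851 promoters 7.15% did. The following stretches are shown because they belong to the antagonists whose levels separated the genotypes (*Mxd4*, *Mnt*), to *Mlxipl*, which also did, and to the shared partner *Max*. Each is read 5′ to 3′ on the strand of the gene, with the E-box in capitals.
*Mxd4*, chr5:34187894-34187959, minus strand: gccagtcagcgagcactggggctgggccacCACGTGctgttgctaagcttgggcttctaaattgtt
*Mnt*, chr11:74830771-74830836, plus strand: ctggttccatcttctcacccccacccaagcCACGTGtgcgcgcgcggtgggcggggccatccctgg
*Mlxipl*, chr5:135089762-135089827, plus strand: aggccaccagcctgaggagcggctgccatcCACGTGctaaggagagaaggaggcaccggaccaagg
*Max*, chr12:76962246-76962281, minus strand: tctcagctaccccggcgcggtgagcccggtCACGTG
The first base of the E-box lay 219 bases before the start of *Mxd4*, 123 bases before that of *Mnt*, 98 bases before the upstream start of *Mlxipl* and 3 bases before that of *Max*. The GLI word GACCACCCA, sought on both strands, was not in these windows of any of the 8 members or of the branch genes, and 0.289% of all symbols (0.253% of promoters) held it. A match or its absence describes these letters only.

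None of the 9 members passed the test between the genotypes. edgeR called 0 of 9 at an adjusted p under 0.05 with a fold change of at least 1.2, where it called 88 of 25093 genes (0.351%), and DESeq2 called 0 of 9 where it called 1.53% of all genes. limma-voom called 0 of 9 too. In fitted level 3 members were higher and 6 lower in *Gli3*∆/∆ QSCs, and 5 were higher and 4 lower without *Gli3*+/+ replicate 3. At an unadjusted p under 0.05 edgeR had 2 of 9, *Mxd4* and *Mnt*, beside 7.11% of all genes. *Mxd4* was the 1 member whose *Gli3*∆/∆ libraries all lay above the *Gli3*+/+ libraries (6.39% of all genes), and *Mnt* the 1 member whose *Gli3*∆/∆ libraries all lay below (6.57% of all genes). In bulk libraries, fewer cells that transcribe a gene and less RNA per cell cannot be told apart.

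**Figure D1:**
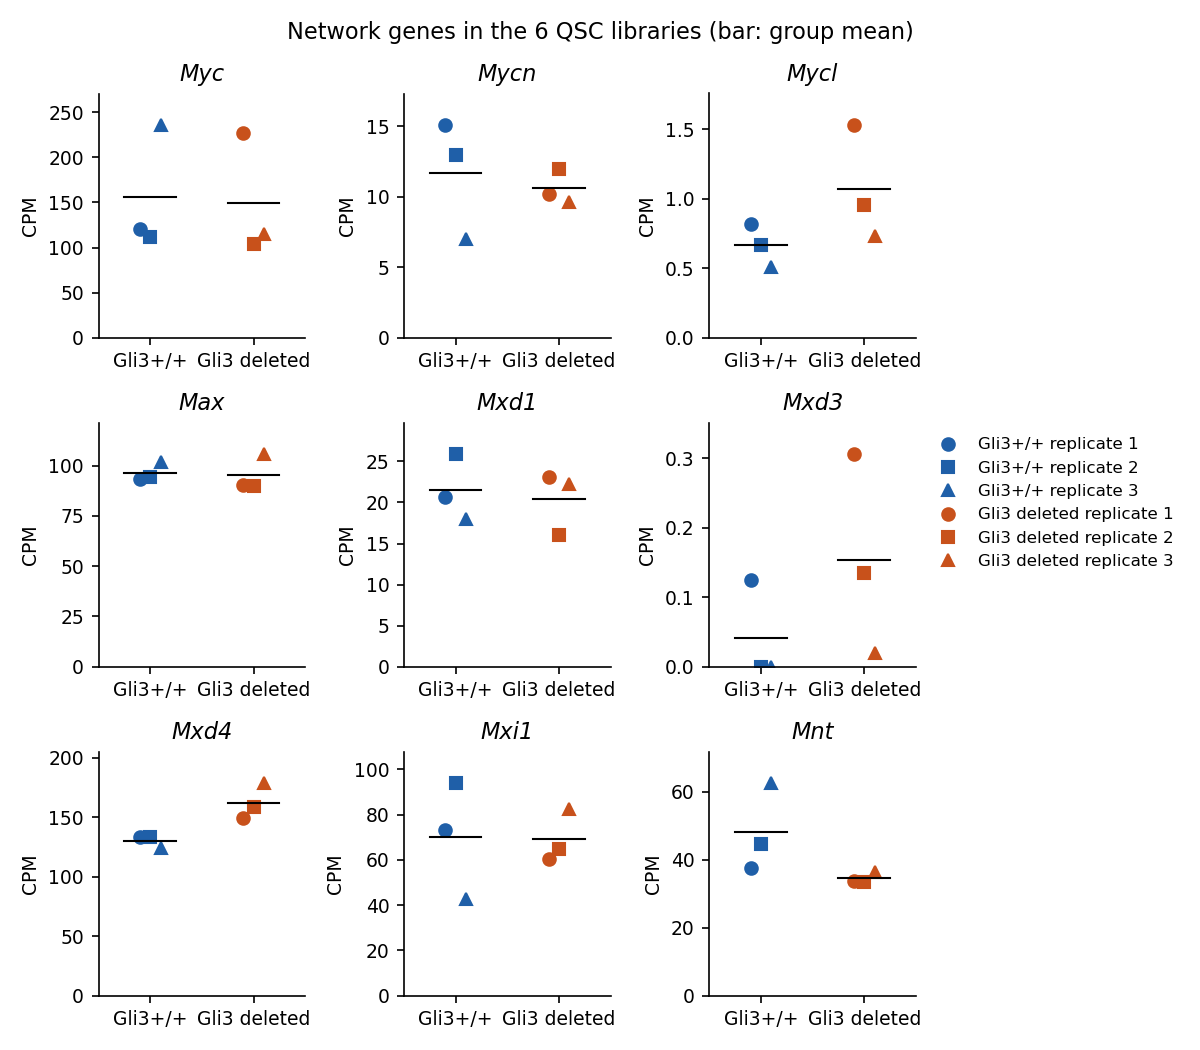
CPM of the 9 network genes (vertical axes, each from 0) in the 3 *Gli3*+/+ (blue) and 3 *Gli3*∆/∆ (orange, labelled Gli3 deleted) QSC libraries, with symbols for replicates and a bar at each group mean. *Myc* is high in 1 library of each genotype, and the groups separate for *Mxd4* and *Mnt*.

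Among the activators, *Myc* (ENSMUSG00000022346.15, chromosome 15 of GRCm38, 61985391 to 61990374, plus strand) was the main MYC gene of QSCs. Its level was 120, 112 and 236 CPM in *Gli3*+/+ and 228, 104 and 115 CPM in *Gli3*∆/∆ libraries. A pair of libraries, *Gli3*+/+ replicate 3 and *Gli3*∆/∆ replicate 1, held about the same high level, and the other 4 lay between 104 and 120 CPM. Across 14696 genes, the deviations of this pair of libraries from their group means correlated at 0.273, among 9 such pairs that ranged from −0.276 to 0.329. The group means, 156 ± 69.0 and 149 ± 68.3 CPM (SD, n = 3 each), differed by far less than the spread within either group. The log2 fold change was −0.07 ± 0.36 SE (adjusted p = 0.997 from edgeR). Its sign was set by single libraries, at 0.36 without *Gli3*+/+ replicate 3 and −0.51 without *Gli3*∆/∆ replicate 1.

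*Mycn* (ENSMUSG00000037169.15, chromosome 12, 12936093 to 12941914, minus strand), known from embryonic and neural progenitors, was at 15.0, 13.0 and 7.01 CPM in *Gli3*+/+ and 10.2, 12.0 and 9.62 CPM in *Gli3*∆/∆ libraries. It was lowest in *Gli3*+/+ replicate 3, where *Myc* was highest, and the groups overlapped (log2 fold change −0.14 ± 0.27 SE, adjusted p = 0.960 from edgeR). *Mycl* (ENSMUSG00000028654.13, chromosome 4, 122995652 to 123002485, plus strand), the third MYC gene, was at 0.819, 0.667 and 0.511 CPM and 1.53, 0.955 and 0.728 CPM, from 22 to 80 counts per library. It was highest in *Gli3*∆/∆ replicate 1, and the groups overlapped. Its log2 fold change was 0.68 ± 0.40 SE (adjusted p = 0.834 from edgeR), and 0.34 without *Gli3*∆/∆ replicate 1.

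*Max* (ENSMUSG00000059436.13, chromosome 12, 76937269 to 76962201, minus strand), the obligate partner of both arms, was the steadiest member. Its level was 93.3, 94.2 and 102 CPM in *Gli3*+/+ and 90.4, 90.0 and 106 CPM in *Gli3*∆/∆ libraries, so that the highest library was 1.17 times the lowest. For *Myc* the same ratio was 2.26. The log2 fold change of *Max* was −0.02 ± 0.13 SE (adjusted p = 1 from edgeR).

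Among the antagonists, *Mxd4* (ENSMUSG00000037235.13, chromosome 5, 34173883 to 34187720, minus strand) was at 133, 133 and 124 CPM in *Gli3*+/+ and 149, 158 and 178 CPM in *Gli3*∆/∆ libraries. The 3 *Gli3*∆/∆ libraries were all higher, with group means of 130 ± 5.29 and 162 ± 15.1 CPM (SD, n = 3 each). The log2 fold change was 0.32 ± 0.13 SE, and it missed the threshold (adjusted p = 0.658 from edgeR and 0.480 from DESeq2). It was positive under all alternatives, from 0.24 to 0.37. A predicted gene, *Gm42846*, overlaps *Mxd4* on the opposite strand, and the sources used here do not state whether the counting used strand.

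*Mnt* (ENSMUSG00000000282.12, chromosome 11, 74830920 to 74845725, plus strand), which encodes the antagonist found in most cell types, was at 37.6, 44.7 and 62.4 CPM in *Gli3*+/+ and 33.8, 33.3 and 36.5 CPM in *Gli3*∆/∆ libraries. The 3 *Gli3*∆/∆ libraries were all lower and lay close together, while the *Gli3*+/+ libraries were spread out (48.2 ± 12.8 and 34.5 ± 1.69 CPM, SD, n = 3 each). The log2 fold change of −0.48 ± 0.19 SE did not pass (adjusted p = 0.637 from edgeR and 0.499 from DESeq2). It was −0.25 without *Gli3*+/+ replicate 3.

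Markers of Schwann cells, the glia of peripheral nerves, separated the same libraries. Both that are reported here, 2 of 2 (*Sox10*, the lineage's transcription factor, and *Mbp*, a myelin protein gene), were lower in every *Gli3*∆/∆ library (6.57% of all genes), and neither was at 0. Their summed level was 33.6, 25.9 and 41.2 CPM in *Gli3*+/+ and 11.6, 21.4 and 19.6 CPM in *Gli3*∆/∆ libraries (two-sided exact permutation test, p = 0.1, the smallest that 3 against 3 allows). *Mbp* was the more abundant, at a mean of 22.7 CPM. edgeR called 0 of the 2 (0.351% of all genes), limma-voom called 0 and DESeq2 called 1 (1.53% of all genes). At an unadjusted p under 0.05 edgeR had 2 of 2 (7.11% of all genes). The part of these cells in the values of *Mxd4* and *Mnt* was not tested.

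*Mxi1* (ENSMUSG00000025025.13, chromosome 19, 53310518 to 53375810 in the annotation, which carries a later version of the identifier), an antagonist also called MXD2, was at 73.1, 93.8 and 42.9 CPM in *Gli3*+/+ and 60.5, 64.9 and 82.7 CPM in *Gli3*∆/∆ libraries. The groups overlapped, and *Gli3*+/+ replicate 3 was the lowest (log2 fold change −0.01 ± 0.26 SE, adjusted p = 1 from edgeR). *Mxd1* (ENSMUSG00000001156.9, chromosome 6, 86647042 to 86669161, minus strand), a gene induced as many cell types differentiate, was at 20.6, 25.9 and 18.0 CPM and 23.1, 16.1 and 22.3 CPM. Its groups overlapped as well (log2 fold change −0.07 ± 0.20 SE, adjusted p = 0.983 from edgeR).

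*Mxd3* (ENSMUSG00000021485.14, chromosome 13, 55325168 to 55329823, minus strand), the MXD gene known from cycling progenitors, was close to the limit of detection in QSCs. Its counts were 5, 0 and 0 in *Gli3*+/+ and 16, 9 and 1 in *Gli3*∆/∆ libraries. No fold change is given for it, since 3 of the 6 libraries hold under 3 counts, and in the counts of members that were higher or lower it enters by its fitted sign only. *Prelid1* overlaps it on the opposite strand, and *Max*, *Mxd1*, *Mxi1*, *Mlx*, *Mlxip* and *Mlxipl* also overlap other annotated genes.

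**Figure D2:**
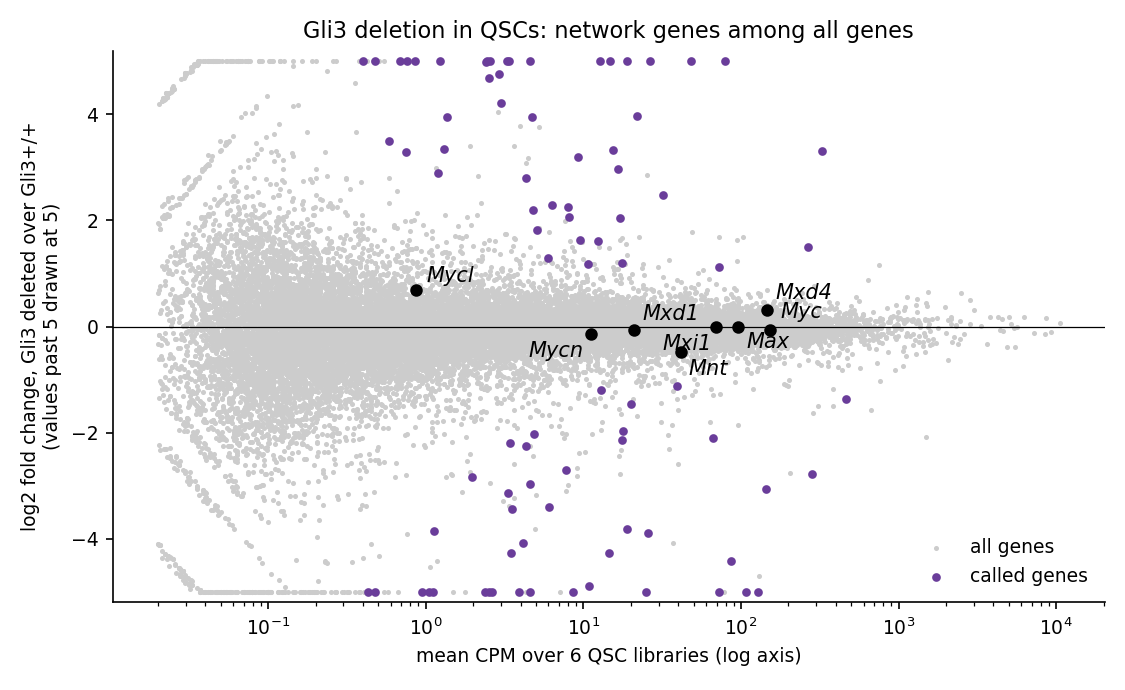
Log2 fold change of *Gli3*∆/∆ over *Gli3*+/+ QSCs (vertical axis, values past 5 drawn at 5) against mean CPM (horizontal log axis), for all genes with a mean of at least 0.02 CPM (grey), genes called by edgeR (purple) and 8 network genes (black, named), without *Mxd3*. The network genes lie within the grey cloud and none is among the 88 called genes.

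Levels can be compared between genes only per length, and were divided by the kilobases of merged exon in the annotation. *Myc* led at a mean of 56.1 CPM per kilobase (38.4 to 86.7 over the 6 libraries), followed by *Max* at 26.6 and *Mxd4* at 17.2. *Myc* exceeded *Max*, and *Max* exceeded *Mxd4*, without overlap between the libraries. *Mxi1* followed at 10.2 and *Mnt* at 8.94 CPM per kilobase, and these neighbours overlapped. *Mycn* at 3.38 and *Mxd1* at 2.97 lay below all libraries of *Mnt* and overlapped each other. *Mycl* at 0.215 was clearly below *Mxd1*, and *Mxd3* at 0.041 overlapped *Mycl*. The length used changes these comparisons. With the longest transcript in place of merged exons, *Myc* at 65.2 and *Max* at 49.4 overlapped, *Max* being higher in 3 of the 6 libraries, *Mxd4* stood at 31.5, *Mxd1* ranked above *Mycn*, and the order of the means of the other 7 members was the same.

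**Figure D3:**
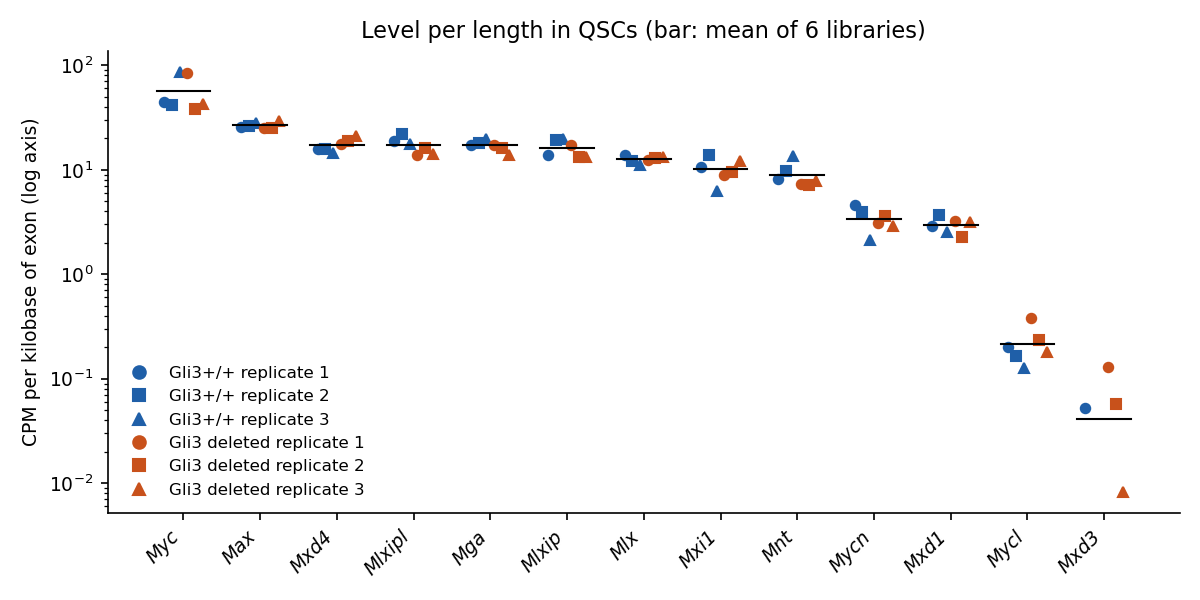
CPM per kilobase of exon (vertical log axis) for the 9 network genes and 4 genes of the MLX and MGA branch, ordered by the mean of 6 QSC libraries (bar), with a point for each library (blue *Gli3*+/+, orange *Gli3*∆/∆). *Mxd3* in *Gli3*+/+ replicates 2 and 3 is at 0 and is not drawn on the log axis.

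*Myc* supplied between 90.3% and 97.5% of the summed level per kilobase of the 3 MYC genes. The ratio of the MYC genes to the 5 antagonist genes, summed per kilobase, was 1.31, 1.06 and 2.41 in *Gli3*+/+ and 2.35, 1.12 and 1.03 in *Gli3*∆/∆ libraries. With the longest transcript as the length it was 1.03, 0.846 and 1.96 in *Gli3*+/+ and 1.79, 0.852 and 0.783 in *Gli3*∆/∆ libraries, so that which arm was higher depended on the length in 3 libraries. With either length the pair of libraries with high *Myc* had the highest ratios, and both genotypes spanned the range. The antagonist sum itself lay between 36.9 and 44.2 CPM per kilobase of merged exon.

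The 4 genes of the parallel branch encode MLX, a MAX-like partner, the glucose-responsive MLXIP (MondoA) and MLXIPL (ChREBP), and MGA, a large MAX partner of a Polycomb complex. Of the 4, 1 was higher and 3 lower in fitted level (median −0.24), and without *Gli3*+/+ replicate 3 all 4 were lower (median −0.17). Their summed level was 512, 586 and 586 CPM in *Gli3*+/+ and 511, 474 and 429 CPM in *Gli3*∆/∆ libraries (two-sided exact permutation test, p = 0.1, the smallest possible). Every *Gli3*∆/∆ library was lower, though the nearest pair was less than 1 CPM apart. None was called by edgeR, DESeq2 or limma-voom, and 1, *Mlxipl*, had an unadjusted p under 0.05 in edgeR (7.11% of all genes). *Mlxipl* (ENSMUSG00000005373.13, chromosome 5, 135089890 to 135138382, plus strand) was at 105, 123 and 98.2 CPM in *Gli3*+/+ and 75.9, 88.5 and 79.1 CPM in *Gli3*∆/∆ libraries. All 3 *Gli3*∆/∆ libraries lay below the *Gli3*+/+ libraries, at a log2 fold change of −0.42 ± 0.14 SE (adjusted p = 0.494 from edgeR and 0.283 from DESeq2). The Schwann cell markers given above separate these libraries in the same direction, and their part in the value was not tested.

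*Mlx* (ENSMUSG00000017801.15, chromosome 11, 101087277 to 101092207, plus strand) was at 27.7, 24.1 and 22.4 CPM and 24.7, 26.1 and 26.4 CPM, with overlapping groups. *Mlxip* (ENSMUSG00000038342.15, chromosome 5, 123394798 to 123457932, plus strand) was at 114, 161 and 165 CPM and 144, 111 and 110 CPM. *Mga* (ENSMUSG00000033943.15, chromosome 2, 119897228 to 119969581, plus strand) was at 265, 278 and 300.1 CPM and 267, 249 and 213 CPM. Both were highest in *Gli3*+/+ replicate 3, and both overlapped between genotypes, with log2 fold changes of −0.27 ± 0.18 SE for *Mlxip* (adjusted p = 0.866 from edgeR) and −0.21 ± 0.14 SE for *Mga* (adjusted p = 0.860 from edgeR). Per kilobase of merged exon, *Mlxipl*, *Mga* and *Mlxip* stood at 17.1, 17.1 and 16.1 CPM, next to *Mxd4*, and *Mlx* stood at 12.6.

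Corepressors recruited by MXD and MNT proteins were measured through 10 genes. Of these, 4 had a higher and 6 a lower fitted level in *Gli3*∆/∆ QSCs; the median log2 difference was −0.02 beside −0.03 over all genes, and 0 were called by edgeR, DESeq2 or limma-voom. Without *Gli3*+/+ replicate 3, 5 were higher and 5 lower (median 0.02). The lowest fold change and the 1 unadjusted p under 0.05 in edgeR (7.11% of all genes) belonged to *Hdac1*, a histone deacetylase of the SIN3 complex. *Hdac1* was at 65.8, 65.7 and 71.3 CPM in *Gli3*+/+ and 52.5, 49.7 and 48.0 CPM in *Gli3*∆/∆ libraries. The groups were separated by a gap wider than the spread within either, yet the log2 fold change of −0.43 ± 0.12 SE did not pass over all genes (adjusted p = 0.357 from edgeR). The Schwann cell markers separate the same libraries, and their part in this value was not tested either. *Sap30*, a SIN3 subunit, followed at −0.27 ± 0.25 SE. The highest were *Rbbp4*, a histone-binding subunit, at 0.10 ± 0.15 SE and *Hdac2*, the close relative of *Hdac1*, at 0.10 ± 0.13 SE.

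Coactivators of MYC, together with the MYC-binding transcription factor MIZ1 (*Zbtb17*), were measured through 14 genes. Of these, 6 were higher and 8 lower in fitted level, with a median log2 fold change of −0.0061. Without *Gli3*+/+ replicate 3 the balance turned, with 11 higher and 3 lower and a median of 0.12. Every *Gli3*∆/∆ library then lay above both remaining *Gli3*+/+ libraries for 7 of 14 genes. Over all genes this share was 12.7%, and it was 16.5% over those with a mean of at least 1 CPM. For 1 of 14 every *Gli3*∆/∆ library lay below both, beside 3151 of all 25093 genes. Among genes with a mean of at least 1 CPM, that held for 1909 of 14696. With all libraries, none of the 14 was called by edgeR, DESeq2 or limma-voom, and none had an unadjusted p under 0.05 in edgeR. The extremes were *Smarcb1*, a SWI/SNF subunit that binds MYC, at 0.25 ± 0.14 SE, *Kat5*, an acetyltransferase, at 0.13 ± 0.12 SE, *Ep300*, another acetyltransferase, at −0.19 ± 0.14 SE, and *Ep400*, a chromatin remodelling ATPase, at −0.16 ± 0.18 SE.

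MYC protein is short-lived, and 15 genes of its turnover were measured. Of these, 5 were higher and 10 lower in fitted level (median log2 fold change −0.07), with 0 called by any of the 3 tools and 0 at an unadjusted p under 0.05 in edgeR. Without *Gli3*+/+ replicate 3, 9 were higher and 6 lower, with a median of 0.0048. The highest were *Skp2*, a ubiquitin ligase subunit that targets MYC, at 0.30 ± 0.21 SE, and *Btrc*, another ligase subunit, at 0.14 ± 0.15 SE. Among genes with a mean of at least 1 CPM the lowest were *Plk1*, a mitotic kinase, at −0.49 ± 0.52 SE, and *Usp36*, a nucleolar deubiquitinase, at −0.37 ± 0.23 SE. *Plk1* was at 3.25 CPM in *Gli3*+/+ replicate 1 and between 0.874 and 1.76 CPM in the other 5 libraries. *Usp36* was at 188 CPM in *Gli3*+/+ replicate 3 and between 95.5 and 108 CPM in the other 5 libraries.

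Genes that MYC is known to activate were followed through 58 genes of ribosome production, nucleotide and amino acid metabolism, mitochondria, translation and the cell cycle. The fitted level was higher in *Gli3*∆/∆ QSCs for 13 and lower for 45 of them, and the median log2 fold change was −0.15 beside −0.03 over all genes. None was called by edgeR, DESeq2 or limma-voom, and 2 of the 58 had an unadjusted p under 0.05 in edgeR, beside 7.11% of all genes. The direction rested on *Gli3*+/+ replicate 3, which held the highest level of 48 of the 58 genes (82.8%), beside 23.2% of all genes. Without that library 49 were higher and 9 lower, the median was 0.22 beside −0.003 over all genes, and 0 were called by edgeR. limma-voom, which gives each library its own weight, put the median at 0.11 with all libraries kept.

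*Ncl*, which encodes the nucleolar protein nucleolin and was the most abundant of these targets, shows the pattern. It was at 608, 587 and 1118 CPM in *Gli3*+/+ and 694, 687 and 696 CPM in *Gli3*∆/∆ libraries. The *Gli3*∆/∆ libraries lay together, above *Gli3*+/+ replicates 1 and 2 and below replicate 3. With replicate 3 left out, 30 of the 58 targets had every *Gli3*∆/∆ library above both remaining *Gli3*+/+ libraries, beside 12.7% of all genes and 16.5% of genes with a mean of at least 1 CPM. This count is a description of 5 libraries, and no target passed the test in them.

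The lowest fold changes among the targets were those of *Hk2*, a hexokinase, and *Slc7a5*, a transporter of large neutral amino acids. *Hk2* was at 3.70, 3.68 and 29.8 CPM in *Gli3*+/+ and 4.29, 2.31 and 2.50 CPM in *Gli3*∆/∆ libraries (log2 fold change −2.03 ± 0.77 SE, adjusted p = 0.616 from edgeR). *Slc7a5* was at 111, 145 and 436 CPM and 168, 124 and 137 CPM (log2 fold change −0.69 ± 0.45 SE, adjusted p = 0.855 from edgeR). For both genes, *Gli3*+/+ replicate 3 lay far above every other library. The highest fold changes among targets of at least 1 CPM were those of *Phb*, a prohibitin of the mitochondrial inner membrane, at 0.38 ± 0.22 SE, and *Cdk4*, a kinase of the G1 phase, at 0.27 ± 0.15 SE.

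**Figure D4:**
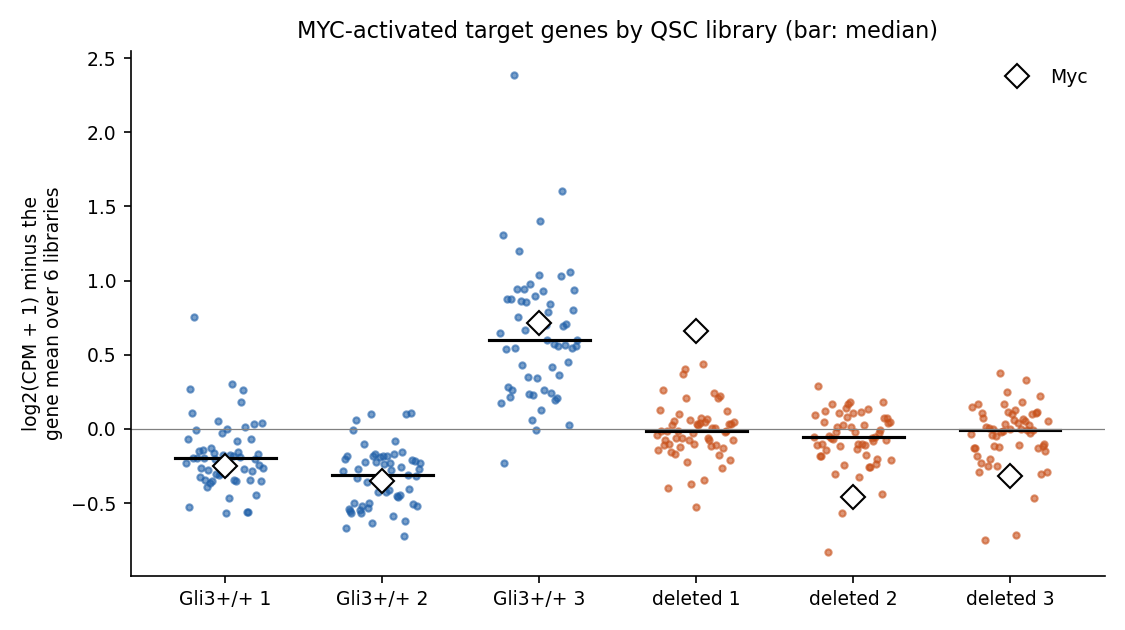
Deviation of 57 MYC-activated target genes with a mean of at least 1 CPM from their own mean over 6 QSC libraries, as log2(CPM + 1) (vertical axis), by library (blue *Gli3*+/+, orange *Gli3*∆/∆, labelled deleted), with a bar at the median and an open diamond for *Myc*. Targets and *Myc* are both high in *Gli3*+/+ replicate 3, while in *Gli3*∆/∆ replicate 1 *Myc* is high and the targets are centred near 0.

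*Myc* and its targets did not move together in all libraries. On the log2(CPM + 1) scale, the deviation of *Myc* from its own mean was −0.25, −0.35 and 0.71 in *Gli3*+/+ and 0.66, −0.46 and −0.32 in *Gli3*∆/∆ libraries. The median deviation of the 57 targets with a mean of at least 1 CPM was −0.20, −0.31 and 0.60 in *Gli3*+/+ and −0.02, −0.05 and −0.01 in *Gli3*∆/∆ libraries. In *Gli3*+/+ replicate 3, 55 of the 57 lay above their own mean. In *Gli3*∆/∆ replicate 1, where *Myc* was almost as high, 25 did, as in *Gli3*∆/∆ replicate 3, where *Myc* was low.

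Genes that MYC is known to repress were fewer. Of 8 measured, 2 were higher and 6 lower in fitted level in *Gli3*∆/∆ QSCs (median log2 fold change −0.11), with 0 called by any of the 3 tools and 0 at an unadjusted p under 0.05 in edgeR. Without *Gli3*+/+ replicate 3, 3 were higher and 5 lower (median −0.10). *Cdkn1a*, which encodes the cell cycle inhibitor p21, was at 169, 184 and 428 CPM in *Gli3*+/+ and 314, 133 and 192 CPM in *Gli3*∆/∆ libraries, highest in the same pair of libraries as *Myc*. Its log2 fold change was −0.29 ± 0.40 SE. Among genes with a mean of at least 1 CPM, *Cebpa*, a differentiation factor of other lineages, was lowest at −0.55 ± 0.28 SE, and *Gas1*, a growth arrest gene and Hedgehog co-receptor, was highest at 0.13 ± 0.22 SE, followed by the inhibitor *Cdkn1b* at 0.03 ± 0.20 SE. *Cebpa* was at 88.4 CPM in *Gli3*+/+ replicate 3 and between 37.4 and 42.6 CPM in the other libraries.

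*Myc* is itself an early response gene, and tissue dissociation induces such genes. The summed level of 20 immediate early and dissociation response genes was 71531, 53608 and 54058 CPM in *Gli3*+/+ and 51905, 53234 and 55241 CPM in *Gli3*∆/∆ libraries (two-sided exact permutation test, p = 0.4). The highest sum was that of *Gli3*+/+ replicate 1, where the heat shock genes *Hspa1a* and *Hspa1b* were at 8728 and 13526 CPM. The pair of libraries with high *Myc* did not have high sums, but these heat shock genes were lowest in that pair. They were at 3507 and 5535 CPM in *Gli3*+/+ replicate 3 and at 4058 and 5790 CPM in *Gli3*∆/∆ replicate 1. The sum therefore does not show how the other genes of the list stood in the pair. Single genes of the list differed from the sum. *Egr2* was at 301, 175 and 334 CPM in *Gli3*+/+ and 333, 187 and 125 CPM in *Gli3*∆/∆ libraries, and *Egr3* at 94.0, 35.7 and 110 CPM and 157, 63.0 and 21.2 CPM. Both, named after their values were seen, encode early growth response factors and were highest in the pair of libraries with high *Myc*, followed by *Gli3*+/+ replicate 1. The part of the early response in the level of *Myc* was not tested. *Egr1*, an immediate early transcription factor, was the most abundant, at a mean of 9325 CPM. Of the 20 genes, 3 were higher and 17 lower in fitted level in *Gli3*∆/∆ QSCs (median −0.13). Without *Gli3*+/+ replicate 3, 4 were higher and 16 lower (median −0.20). With all libraries, 0 were called by any of the 3 tools, and 1 had an unadjusted p under 0.05 in edgeR (7.11% of all genes). The extremes were *Dusp1*, a MAPK phosphatase, at 0.32 ± 0.16 SE, *Klf6*, a zinc finger factor, at 0.09 ± 0.16 SE, *Nr4a1*, an orphan nuclear receptor, at −0.34 ± 0.20 SE, and *Fosb*, an AP-1 subunit, at −0.39 ± 0.19 SE.

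The genes whose pattern over the 6 libraries was nearest to that of *Myc* were sought among 9584 genes with a mean of at least 10 CPM. Likeness was the root mean square difference of centred log2(CPM + 1) values, for which the median gene had 0.517. The nearest 5 were *Pakap* (0.088), *Eif1a* (0.105), *Stip1* (0.120), *Zyx* (0.124) and *Pdlim7* (0.133). *Eif1a*, a translation initiation factor, was at 49.1, 51.7 and 116 CPM in *Gli3*+/+ and 94.5, 48.5 and 47.0 CPM in *Gli3*∆/∆ libraries. *Stip1*, a cochaperone of HSP70 and HSP90, was at 138, 106 and 231 CPM and 206, 95.7 and 122 CPM. Like *Myc*, both were high in *Gli3*+/+ replicate 3 and *Gli3*∆/∆ replicate 1 only. *Zyx* and *Pdlim7* encode proteins of the actin cytoskeleton.

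The mean over the whole series, QSCs and ASCs together, was read from the authors' tables as their mean of counts divided by size factors, with no spread. That it covers the libraries of all 4 groups was inferred from its being identical in the 4 tables, and the ratios below rest on this. The 2 scales have different size factors, so each gene's ratio of that mean to the QSC mean was divided by the median ratio of 24304 genes, 0.909. *Mxd3* had an authors' mean of 197 against a QSC mean of 5.09, a ratio 42.6 times that of the median gene. *Mycl* had 401 against 45.3, a ratio 9.73 times that of the median gene. Both lay beyond the 95th percentile of all genes, 5.44.

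The other 7 members had relative ratios from 0.660 (*Mycn*) to 0.863 (*Max*), all below the median gene and within the 5th to 95th percentiles (0.568 to 5.44). *Myc* stood at 0.745, with an authors' mean of 5387 against a QSC mean of 7953, *Mxd4* at 0.722, *Mxi1* at 0.721, *Mnt* at 0.798 and *Mxd1* at 0.855. In the branch, *Mlxipl* stood at 0.518, under the 5th percentile, with *Mlxip* at 0.745, *Mga* at 0.755 and *Mlx* at 1.10. *Mxd3* and *Mycl*, the lowest members in QSCs, were thus those with the highest mean of the series relative to their QSC level. The ratio of *Mxd3* has a QSC mean close to the limit of detection as its divisor. High ratios were not particular to these genes. They ran from 2.27 (*Pcna*) to 94.1 (*Ccnb1*) among the markers of cycling cells, and from 5.50 (*Cd68*) to 155 (*Adgre1*) among those of macrophages. These ratios describe pooled means and were not tested.

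**Figure D5:**
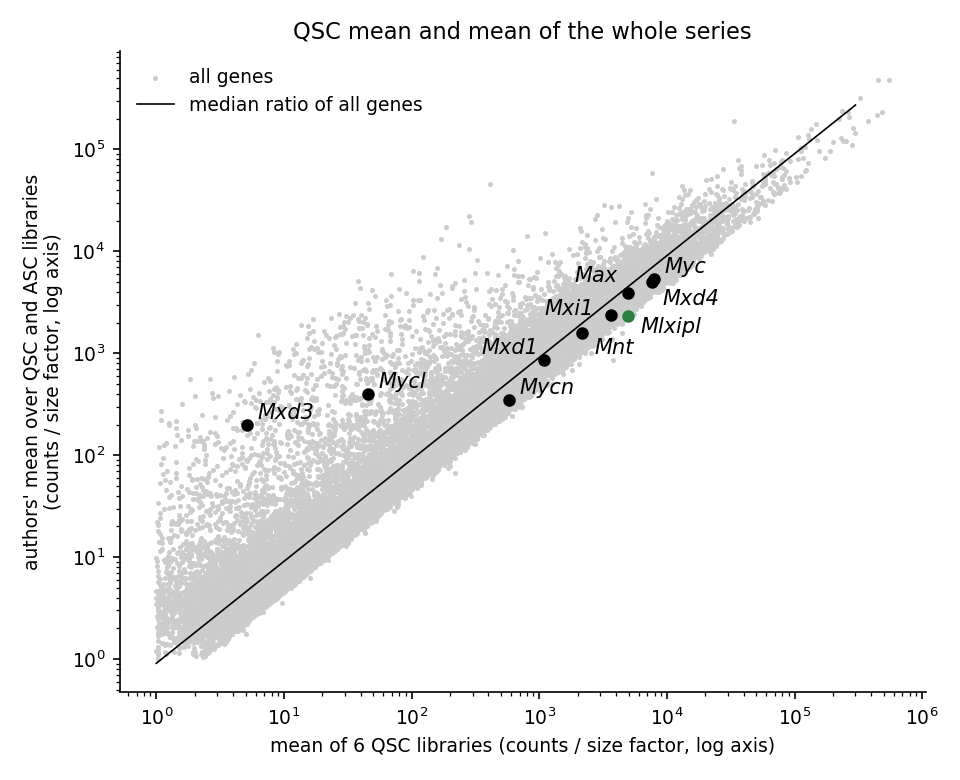
The authors' mean over QSC and ASC libraries (vertical log axis) against the mean of the 6 QSC libraries (horizontal log axis), both in counts divided by size factors, for all genes at 1 or more on both axes (grey), the 9 network genes (black) and *Mlxipl* (green). *Mxd3* and *Mycl* lie far above the line of the median ratio, 0.909, and the other network genes lie just under it.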

How the data were processed

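RNA from FACS-sorted satellite cells (20 ng) was made into strand-keeping polyA libraries. The authors quantified reads with salmon against GRCm38 (GENCODE annotation), summed them to genes with tximport, kept genes with at least 5 reads in at least 2 samples, and deposited estimated counts that were not normalized. In 4 further tables of DESeq2 results, the authors gave a mean signal per gene, made by dividing counts by size factors; it is identical in all 4 and was the only column used. The tables also hold log2 fold changes, standard errors and p-values, which were not used. The 6 ASC columns of the count table match no sample label and were not used, so the planned ASC comparisons were not run. In 2 ASC samples the title and the genotype label differ.

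Estimated counts of the 6 QSC libraries were rounded and tested over all 25093 genes with edgeR 4.0.16 (R 4.3.3; TMM, quasi-likelihood test, Benjamini-Hochberg adjustment), with calls at adjusted p under 0.05 where the fold was 1.2 or more. SEs were derived from the fold change and its F statistic. The same data were refitted with DESeq2 1.42.0, limma 3.58.1 (voom, libraries weighted by quality), other size factors and filters, a block and leaving out each library. Sums of lists were compared by exact permutation. Replicates are pools of animals, and p-values measure the spread between these libraries.

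Members and the 19 gene lists were chosen with earlier results of these data known. A few genes were taken out of 2 lists and are not reported here. Named genes were all members and branch genes, in each other list of cofactors, targets or early genes the called genes and, at a mean of at least 1 CPM, the 2 highest and 2 lowest fold changes, and the 5 genes most like *Myc*. *Gli1*, *Ptch1*, *Ncl* and single marker genes were named after their values were seen, and *Gli3* was given as the targeted gene. Gene positions are those of GENCODE vM21 (also GRCm38), promoters from RefSeq (GRCm38.p6). The tests were checked on simulated counts.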

Additional observations from a re-analysis of the deposited data

How the results depend on the processing

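No network gene was called under any alternative, and no gene of the target and cofactor lists under DESeq2 or with any library left out. The count of all genes called, 88, was 384 with DESeq2 and 48 with at least 10 counts in every library, and ranged from 58 (without *Gli3*∆/∆ replicate 3) to 103 (without *Gli3*+/+ replicate 1) with 1 library left out. It was 73 with limma-voom, 90 with DESeq2 size factors, 85 with filterByExpr and 88 with no minimum fold change. *Mycl*, *Mxd4* and *Mnt* kept their sign throughout. filterByExpr and the 10-count filter removed *Mxd3*. With limma-voom the log2 fold change was 0.044 for *Myc* and 0.0060 for *Max*, and the median of the MYC-activated targets was 0.11. With 1 library left out, log2 fold changes ranged from −0.51 to 0.36 for *Myc*, −0.40 to 0.081 for *Mycn*, 0.34 to 0.89 for *Mycl*, −0.096 to 0.024 for *Max*, −0.185 to 0.090 for *Mxd1* and −0.27 to 0.26 for *Mxi1*, and the median of the targets from −0.33 to 0.22. The cause of these changes of sign was not tested. Alternatives for the median of the targets, for the length used, in the order and the ratio, and for counts without *Gli3*+/+ replicate 3 were added after seeing the data. Replicate numbers did not pair the libraries: deviations of same-numbered libraries correlated at −0.276, −0.020 and −0.064 across 14696 genes, and those of differently numbered libraries at −0.241 to 0.329. A fit with the replicate block called 79 genes, 66 of them shared with the fit without it, and put *Mxi1* at 0.040. Alternatives for ASCs were not run, since no ASC column could be matched. Near 3 counts per library, as for *Mxd3*, depth limits any comparison.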

Other observations

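Markers of cycling cells were low in QSCs, with summed levels of 97.6, 62.1 and 104 CPM in *Gli3*+/+ and 69.4, 56.8 and 55.9 CPM in *Gli3*∆/∆ libraries (two-sided exact permutation test, p = 0.2). *Pcna*, the replication clamp, made up most of the sum and was lower in every *Gli3*∆/∆ library, at 64.3, 52.3 and 91.6 CPM against 47.9, 39.0 and 40.5 CPM (log2 fold change −0.71 ± 0.21 SE, adjusted p = 0.400 from edgeR). It was named after its values were seen. Of the 6 genes, 3 (*Mki67*, *Cdk1* and *Mcm2*) were higher and 3 lower in fitted level in *Gli3*∆/∆ QSCs. edgeR, DESeq2 and limma-voom called 0 of them, and 1 had an unadjusted p under 0.05 in edgeR (7.11% of all genes). Without *Gli3*+/+ replicate 3 all 6 were lower. For *Mki67*, *Top2a*, *Ccnb1* and *Mcm2* that direction rested on *Gli3*+/+ replicate 1, at 8.84, 8.64, 3.33 and 10.2 CPM. *Gli3*+/+ replicate 2, at 0.993, 0.563, 0.148 and 6.36 CPM, lay below every *Gli3*∆/∆ library for these genes. *Cdk1* overlapped between the genotypes. *Mki67*, a marker of proliferating cells, was between 0.993 and 8.84 CPM.

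The 9 satellite cell markers summed to 5283, 4637 and 7179 CPM in *Gli3*+/+ and 5327, 5410 and 4995 CPM in *Gli3*∆/∆ libraries (exact permutation test, p = 0.9). Of these markers 3 were higher and 6 lower in fitted level, and 6 higher and 3 lower without *Gli3*+/+ replicate 3. edgeR, DESeq2 and limma-voom called 0 of the 9, and 1, *Cdh15*, had an unadjusted p under 0.05 in edgeR (7.11% of all genes). *Cdh15* was higher in every *Gli3*∆/∆ library, at 338, 233 and 345 CPM in *Gli3*+/+ and 379, 484 and 399 CPM in *Gli3*∆/∆. Its log2 fold change was 0.46 ± 0.18 SE (adjusted p = 0.648 from edgeR). *Sdc4*, a surface proteoglycan, was at 2714 CPM in *Gli3*+/+ replicate 3 against 891 to 1401 CPM in the other 5. Mean sums of the markers of other cells, in *Gli3*+/+ and *Gli3*∆/∆ libraries, were 17.0 and 13.5 CPM for macrophages, 6.42 and 5.44 for neutrophils, 2.56 and 2.35 for lymphocytes, 176 and 149 for endothelial cells, 286 and 235 for fibro-adipogenic cells, 264 and 199 for mural cells, 97.8 and 79.8 for erythroid cells and 43.3 and 45.6 for myofibers. Two-sided exact permutation p-values of these 8 sums lay between 0.3 and 1, and edgeR, DESeq2 and limma-voom called none of their genes. At an unadjusted p under 0.05 edgeR had 3 of the 5 mural genes (7.11% of all genes), and none of the other 7 lists. These 3 went opposite ways. *Rgs5* and *Myh11* were lower in *Gli3*∆/∆ QSCs, at log2 fold changes of −0.92 ± 0.34 SE and −1.50 ± 0.54 SE. *Cspg4* was higher, at 0.42 ± 0.17 SE. The neutrophil and erythroid means of *Gli3*+/+ rested on replicate 1. The neutrophil sums were 16.3, 2.86 and 0.070 CPM in *Gli3*+/+ and 3.40, 9.46 and 3.46 CPM in *Gli3*∆/∆ libraries, and the erythroid sums were 232 CPM in *Gli3*+/+ replicate 1, at most 35.9 CPM in the other *Gli3*+/+ libraries, and 22.5, 113 and 104 CPM in *Gli3*∆/∆ libraries, so that no direction is read from these means. The macrophage sums were 26.9, 12.6 and 11.5 CPM and 16.9, 13.5 and 10.1 CPM, highest in *Gli3*+/+ replicate 1, and the fibro-adipogenic sums 268, 173 and 416 CPM and 210, 284 and 211 CPM, highest in *Gli3*+/+ replicate 3, and no direction is read from these either. The mural sum reached 428 CPM in *Gli3*+/+ replicate 3, against 148 to 218 CPM in the other 5 libraries.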
